A study of Mus musculus with 41 samples.

Results

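The complement component genes C1qa, C1qb, C1qc, C1s, C4b, C2, C3, Cfb and C3ar1 were followed across 41 mouse mammary tumors profiled on 2-color whole-genome microarrays. Members were taken by gene name exactly as the array annotation gives it, and the probe with the highest mean signal stood for each gene. All 9 were found among the 30175 gene names on the array, and all 9 were among the 20910 genes that passed the filter on low signal. In the tumor channel each exceeded background clearly, by the scanner software's test, on 29 of 29 arrays of epithelial tumors and on 12 of 12 arrays of spindle cell tumors, and none was saturated.

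The tumors grew from pieces of Trp53-null mammary duct of several donors, grafted into inguinal fat pads from which the host's own epithelium had been removed. Hosts were female BALB/c mice, wild-type for Trp53. All groups share the Trp53-null transplant and the wild-type host, so the host's macrophages, fibroblasts, fat cells and vessels carry Trp53 in every group. After transplantation mice ate a low fat diet (LFD) or a high fat diet (HFD) throughout, or were switched at maturity from HFD to LFD (HFD-LFD) or from LFD to HFD (LFD-HFD). The 29 epithelial tumors comprised 8 HFD, 7 HFD-LFD, 8 LFD and 6 LFD-HFD tumors, of which 14 arose early and 15 late. The 12 spindle cell tumors comprised 3 of each regimen, of which 3 arose early and 9 late, and all HFD and all LFD spindle cell tumors were late. The tumors carry 38 different label numbers, 3 of which are shared by a pair of tumors; the labels do not tie tumors to mice, so p-values measure the spread between tumors.

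Values are log2 ratios of tumor over a common reference RNA pooled from mouse cell lines. The labels put the tumor in the Cy5 channel, whereas the study's methods give Cy5 to the reference. The direction used here is that of the labels and is therefore opposite to the methods: a positive ratio means more signal in the tumor. Of 5 probes for Y-linked genes, the median log2 ratio was below 0 on 38 of 41 arrays, and the median SD across arrays was 0.702 in the tumor channel against 0.418 in the reference channel.

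Between 52.4 and 94.9% of spots were well above background in the tumor channel of the epithelial arrays, and between 59.1 and 72.7% on the spindle arrays. Outlier spots made up 22.02% of the spots on the array of the early HFD epithelial tumor 60L, where 6 of the 9 genes had no value, 8.04% for a tumor of the late HFD-LFD group, and at most 3.50% on the others. The spindle arrays had their own scan session, scanner and version of the scanner software, so these cannot be told apart from histology. The probe for Trp53 was well above background on 41 of 41 arrays, with a log2 ratio between -2.25 and 3.74 for epithelial tumors and between 0.084 and 1.95 for spindle cell tumors; whether it lies in the deleted part of the gene was not checked. The HFD tumors 40R4A, 57R and 65R have labels that disagree between the scanner files and the authors' table, and the scanner files were followed. Of 10 epithelial markers, 0 passed the test between histologies in limma, although the difference of all 10 was negative in spindle cell tumors (median -0.70, log2), while 11 of 11 fibroblast markers had a positive difference and 4 passed.

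Complement is a cascade of plasma and tissue proteins that tags surfaces for removal and recruits leukocytes. C1q, built from the products of C1qa, C1qb and C1qc, recognises antibody and other ligands, and the protease C1s in its complex cleaves C4 and C2 to make the classical convertase, which splits C3; factor B, encoded by Cfb, makes the convertase of the alternative pathway. C3ar1 encodes the receptor for the C3a fragment. In most tissues C1q is made mainly by macrophages, whereas C3, C4, C1s and factor B are made by hepatocytes and also by fibroblasts, epithelial cells and fat cells. In whole tumors, fewer cells of a type and less RNA per cell cannot be told apart.

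The C1q genes lie side by side on chromosome 4. On the array's mm9 build their probes were at chr4:136452409-136452468 for C1qa, chr4:136436578-136436637 for C1qb and chr4:136445766-136445825 for C1qc. C4b, C2 and Cfb lie close together on chromosome 17, with probes at chr17:34865328-34865387, chr17:34999575-34999634 and from chr17:34993502-34993858, and C3 is on the same chromosome at chr17:57343416-57343475. The probes of C3ar1 and C1s were at chr6:122798222-122798281 and chr6:124480775-124480834. The C4b probe is also annotated to C4a, a near-identical copy, so the signals of the pair cannot be separated. The C1s probe is annotated to the RefSeq gene C1s1, which has a close paralog, C1s2.

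RefSeq promoter sequence on GRCm38.p6 was at hand for 5 of the 9 genes: C1qb, C1qc, C3, C3ar1 and C1s. The 250 bases before the start of C1qb, C1qc and C3 are shown because the log2 ratios of the C1q genes went together across tumors and those of C3 did not follow them. They are C1qb at chr4:136886201-136886450, C1qc at chr4:136892915-136893164 and C3 at chr17:57228137-57228386, all read from the minus strand, 5′ to 3′. Capitals mark matches on either strand to the letters GAGGAA, a core bound by ETS factors such as PU.1, or to GGGA and CC with any 4 bases between them, a loose NF-kB pattern.
C1qb: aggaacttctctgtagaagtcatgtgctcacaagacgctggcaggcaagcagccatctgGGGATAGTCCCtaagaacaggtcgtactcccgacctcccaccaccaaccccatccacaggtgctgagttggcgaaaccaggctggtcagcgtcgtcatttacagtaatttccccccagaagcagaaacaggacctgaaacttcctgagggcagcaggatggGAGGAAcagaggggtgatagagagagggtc
C1qc: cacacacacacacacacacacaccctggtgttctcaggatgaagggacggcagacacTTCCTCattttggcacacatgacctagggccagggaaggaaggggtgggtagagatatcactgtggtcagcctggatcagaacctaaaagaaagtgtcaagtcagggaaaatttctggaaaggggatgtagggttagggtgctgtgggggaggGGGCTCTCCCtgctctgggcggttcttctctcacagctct
C3: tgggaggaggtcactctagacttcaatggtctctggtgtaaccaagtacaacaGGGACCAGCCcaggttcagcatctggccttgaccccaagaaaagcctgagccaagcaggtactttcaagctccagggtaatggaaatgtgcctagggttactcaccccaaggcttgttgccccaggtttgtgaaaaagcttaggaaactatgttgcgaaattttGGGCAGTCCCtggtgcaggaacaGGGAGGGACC
GAGGAA occurred once in the window of C1qb, once in that of C1qc and not in that of C3, and the NF-kB pattern had 2 matches in C1qb, which overlap each other, 1 in C1qc and 3 in C3. The same windows of 32851 RefSeq promoters held GAGGAA in 23.3% and the NF-kB pattern in 17.6% of cases. Neither GAGGAA nor the NF-kB pattern was found in the windows of C3ar1 and C1s. The interferon-type letters TTCNNNGAA (7.02% of promoters) and 2 copies of GAAA with any 2 bases between them (2.98%) were found in none of the 5 windows. A match is a description of letters and was not tested as a site.

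The first comparison asked how the genes differed between the histologies. C1qb, a chain of the C1q recognition molecule, was the only one of the 9 genes that passed the test, and it was higher in spindle cell tumors. In epithelial tumors its log2 ratio ran from -0.64 (tumor 13L) through a median of 0.80 to 2.72 (42L4B), with a mean of 0.80 ± 0.71 (SD, n = 29). In spindle cell tumors it ran from 0.71 (M33R) through 1.69 to 3.03 (M129L), with a mean of 1.67 ± 0.76 (SD, n = 12). The groups overlapped, but no spindle cell tumor fell in the range below 0.71, where the lower epithelial tumors lay. The difference was 0.87 on the log2 scale (SE 0.24, 1.83-fold, limma with Benjamini-Hochberg adjusted p = 0.00991). Of all tested genes 20.2% were called at this threshold, 7.92% higher and 12.2% lower in spindle cell tumors, so 1 call among 9 genes is near the background.

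**Figure D1:**
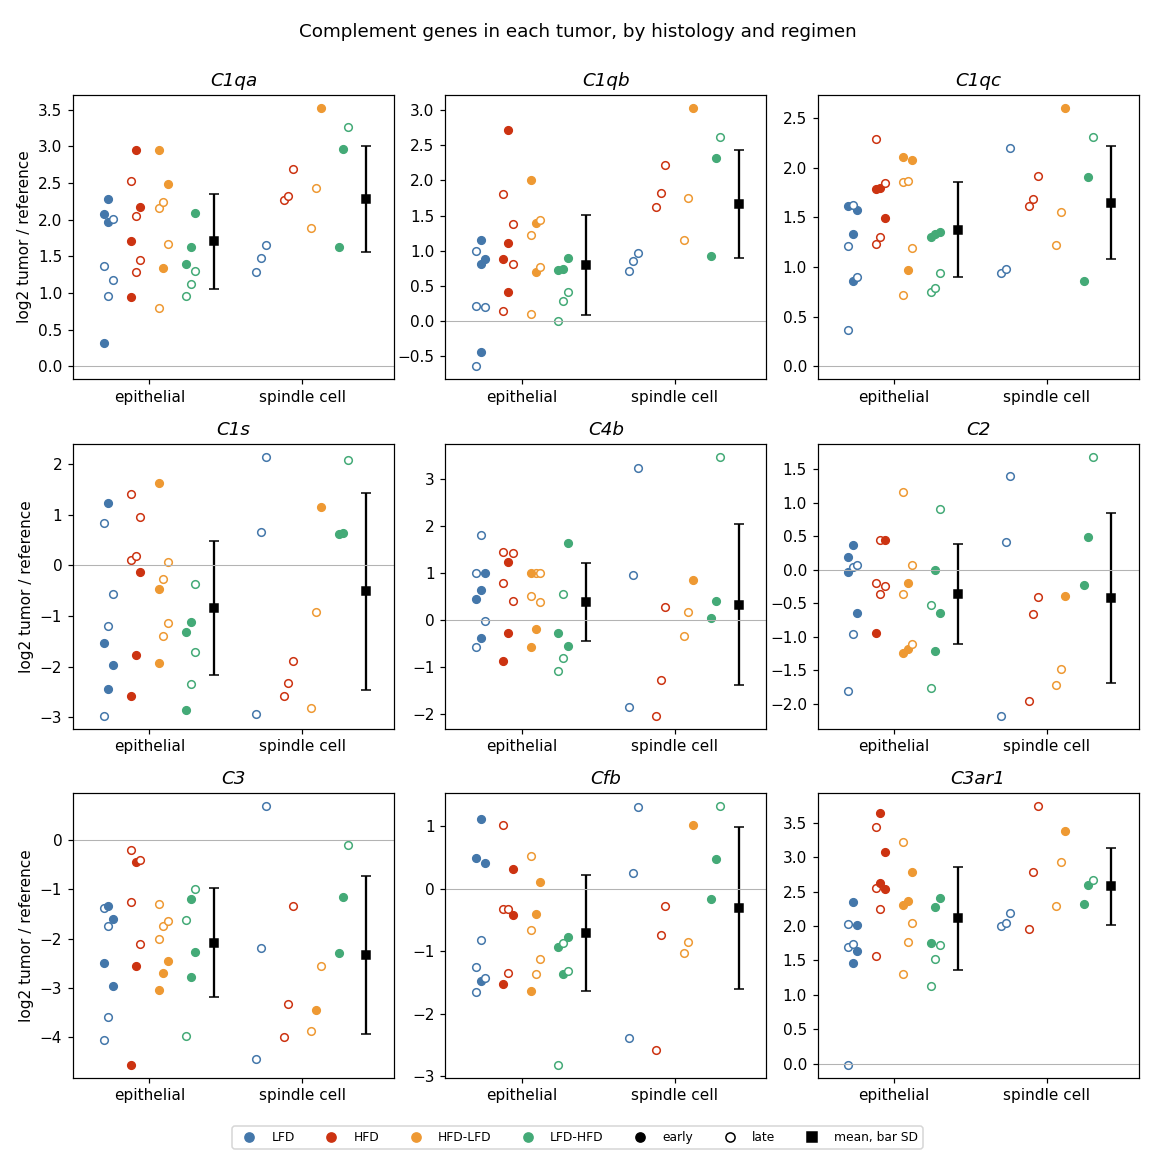
Log2 ratio of tumor over reference (vertical axis) for each of the 9 complement genes in each tumor, by histology (horizontal axis), colored by regimen, filled for early and open for late tumors, with black squares and bars for mean and SD. C1qb has a mean of 0.80 in epithelial and 1.67 in spindle cell tumors, with overlapping points, and C1s spreads from -2.97 to 2.14.

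The other chains of C1q did not pass. C1qa had a mean of 1.70 ± 0.65 (SD, n = 29) in epithelial and 2.28 ± 0.72 (SD, n = 12) in spindle cell tumors, a difference of 0.58 (SE 0.23, limma adjusted p = 0.0624). It passed in 6 of 41 fits that left out a tumor, at an adjusted p down to 0.0339: without any of the 3 LFD spindle cell tumors, 42L4B, 62L or an early HFD-LFD epithelial tumor. C1qc differed by 0.27 (SE 0.17, adjusted p = 0.273). C3ar1 differed by 0.47 (SE 0.24, adjusted p = 0.160), with values from -0.016 to 3.64 in epithelial tumors and from 1.96 to 3.74 in spindle cell tumors. The convertase and protease genes had differences of either sign with wide intervals: Cfb 0.40, C1s 0.33, C4b -0.055, C2 -0.059 and C3 -0.25, with adjusted p of 0.44 to 0.94. The 95% interval for C1s ran from -0.70 to 1.36. The median difference over the 9 genes was 0.33, against -0.069 over all tested genes, and 2 of the 9, C1qa and C1qb, had an unadjusted p under 0.05, as did 6971 of 20910 genes.

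The difference in C1qb was present in late tumors alone (0.92, adjusted p = 0.0295) and without the spindle cell tumors M32L and M76R (0.84, adjusted p = 0.0160). It stayed past the threshold when any single tumor was left out, at 0.74 to 0.96. Most of it, however, lay in the reference channel. With signals centred on each array, C1qb was 0.20 higher in the tumor channel and 0.69 lower in the reference channel of the spindle arrays. C1qa followed the same pattern, with 0.048 in the tumor and -0.56 in the reference channel, whereas C3ar1 was 0.97 higher in the tumor and 0.48 higher in the reference channel. The reference RNA is the same on all arrays, and scan session, scanner and software differ between these groups of arrays; their part in the difference was not tested. Of the 1657 genes called higher in spindle cell tumors, 758 (45.7%) had a larger difference in the reference channel than in the tumor channel.

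**Figure D2:**
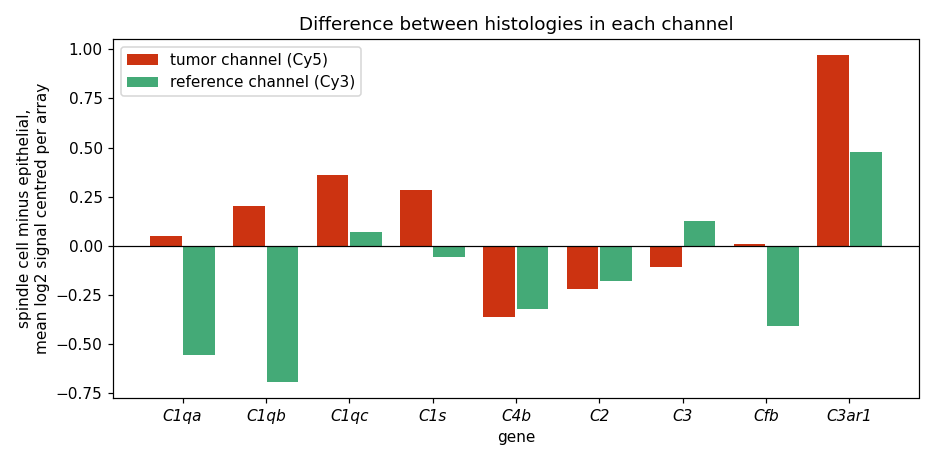
Difference in mean centred log2 signal between spindle cell and epithelial arrays (vertical axis), in the tumor and in the reference channel, for each gene (horizontal axis). For C1qb the bar of the reference channel (-0.69) is longer than that of the tumor channel (0.20), and for C3ar1 the tumor bar (0.97) is the longer.

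Of 16 macrophage markers, 14 had a positive difference in spindle cell tumors, with a median of 0.30, and 1 passed the test, the scavenger receptor Cd163 (1.95, adjusted p = 5.48e-07). The mean log2 ratio of the 16 markers had a median of 0.98 (range 0.26 to 2.38) over the epithelial and of 1.35 (range 0.86 to 2.55) over the spindle cell tumors. Their part in the difference of C1qb was not tested.

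Of the other complement genes some passed the test, where 20.2% of all genes tested were called. Of 12 initiation genes tested, 1 was called higher and 2 lower; of 4 terminal genes, 1 was called in each direction; of 14 regulators, 2 were called lower; and of 8 receptors, 0 were called in limma, with 1 at an unadjusted p under 0.05. C7, a component of the membrane attack complex, had a mean log2 ratio of 0.80 in epithelial and 2.12 in spindle cell tumors, a difference of 1.32 (SE 0.21, adjusted p = 1.39e-05). C1rb, a C1r protease that partners C1s, was 1.09 higher (SE 0.30, adjusted p = 0.00812), but 0.76 higher with an adjusted p of 0.154 in late tumors only. C1rb and C1ra are close copies whose signal may be shared. The regulators Cfi, the protease factor I that cleaves C3b, and Vtn, vitronectin, were lower by -1.12 (adjusted p = 0.000238) and -0.82 (adjusted p = 2.77e-05). Both had signals below the reference in both histologies. With pubertal HFD and LFD the mean log2 ratio of Cfi was -5.4 and -5.2 in epithelial and -6.9 and -5.9 in spindle cell tumors. That of Vtn was -4.2 and -4.4 in epithelial and -5.4 and -4.8 in spindle cell tumors. C8g, a chain of C8, was lower by -0.68 (adjusted p = 0.0027). Mbl2, a mannose-binding lectin, was called lower, but was well above background on 27 of 29 epithelial and 2 of 12 spindle arrays. The ficolin Fcnb was also called lower, but was not well above background on any of 12 spindle arrays and on 14 of 29 epithelial arrays. No fold is given for either.

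The next comparison asked whether the genes differed between epithelial tumors that arose early and late. None of the 9 passed the test, where 0.143% of all tested genes did, and 0 of the 9 had an unadjusted p under 0.05 in limma. C3ar1 ran from 1.46 (17R) through 2.36 to 3.64 (42L4B) in early tumors and from -0.016 (13L) through 1.74 to 3.45 (62L) in late tumors, and the ranges overlapped over most of their length. Its difference was 0.51 (SE 0.26, adjusted p = 0.398). Cfb, C1qb, C1qa and C1qc had differences of 0.45, 0.39, 0.34 and 0.25 in the same direction, which became -0.22, 0.059, 0.186 and 0.00745 with the slide as a fixed block, and C1s (-0.61), C3 (-0.47), C4b (-0.30) and C2 (-0.11) in the other. The median was 0.25, against 0.014 over all genes. Interferon-induced genes had a positive difference in 15 of 15 cases, with a median of 0.61, and 1 of them, Ifit1, passed the test (1.81, adjusted p = 0.0766). Within the 3 slides shared by early and late epithelial tumors, C3ar1 differed by 0.95, 0.68 and -0.98, and with the slide as a fixed block by 0.15 (SE 0.38). C1s differed by -1.38, -2.14 and -1.75 within these slides, and with the slide as a fixed block by -1.79 (SE 0.71, limma adjusted p = 0.514). The -2.14 came from the slide of the 3 disputed HFD tumors. The -0.98 of C3ar1 and the -1.75 of C1s set 2 early LFD-HFD tumors against 2 late HFD tumors, so onset and regimen cannot be told apart on that slide. Swapping the labels of the 3 disputed HFD tumors, or leaving them out, gave 0 calls among the 9 genes as well.

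In spindle cell tumors, 3 of which were early and 9 late, 0 of 20907 genes were called (0%; 425 at an unadjusted p under 0.05). C1s was 0.61, 0.63 and 1.15 in the early tumors and ran from -2.93 (M18L) through -1.88 to 2.14 (M32L) in the late ones. The early tumors lay within the range of the late tumors. The difference was 1.75 with a 95% interval from -0.65 to 4.16. The difference between early and late in spindle cell tumors exceeded that in epithelial tumors by 2.36 for C1s (interaction term, adjusted p = 0.9999), where 0.00478% of genes were called, and C1s was the 1 member at an unadjusted p under 0.05 (630 of 20907 genes).

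Diet was compared over all 41 tumors by what was eaten in puberty and by what was eaten in adulthood. C3ar1 and the C1q genes had positive differences between HFD and LFD in puberty, but none passed the test over all genes, where 2 of 20910 (0.00956%) were called. C3ar1 ran from 1.30 through 2.55 to 3.74 (M63L) in the 21 tumors with pubertal HFD, and from -0.016 (13L) through 2.01 to 2.67 (M76R) in the 20 with pubertal LFD. The upper end of the pubertal HFD group extended beyond the pubertal LFD group, and the lower ends overlapped. The difference was 0.72 (SE 0.20, 95% interval 0.32 to 1.12), the 36th smallest p of all genes, and adjusted p was 0.400. C1qb differed by 0.62 (SE 0.23), C1qa by 0.44 (SE 0.21) and C1qc by 0.40 (SE 0.15), each with an unadjusted p under 0.05 and an adjusted p of 0.603 to 0.706. The other genes differed by -0.32 (C2) to 0.019 (C1s), and 4 of 9 members had an unadjusted p under 0.05 (1453 of all genes).

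**Figure D3:**
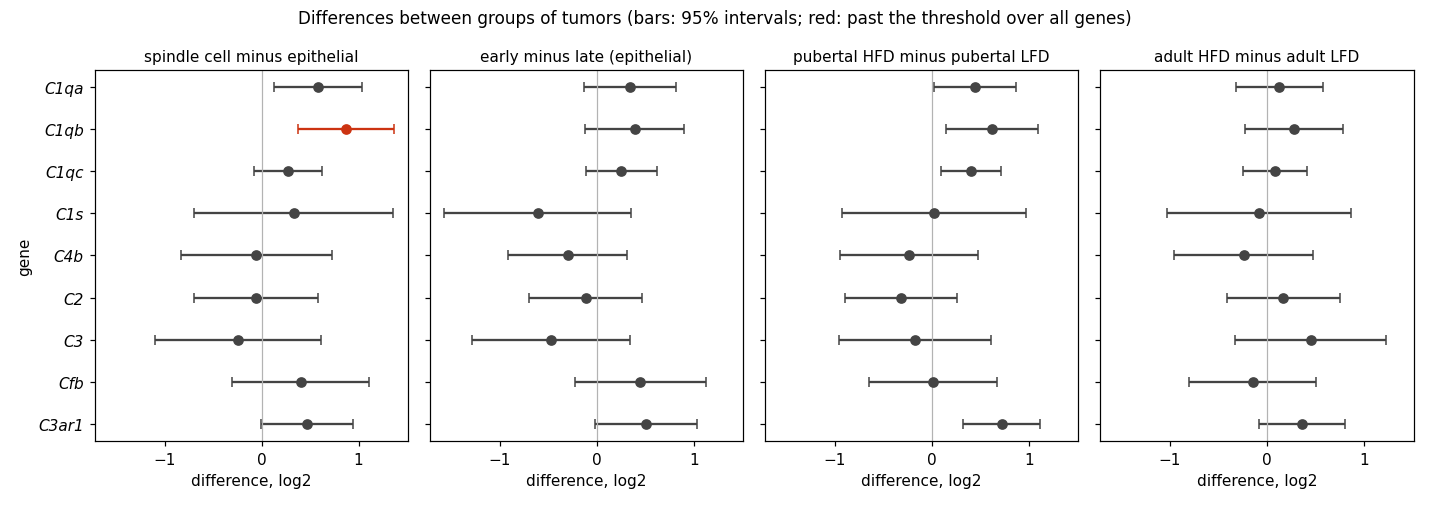
Differences in log2 ratio (horizontal axis) with 95% intervals for the 9 genes (vertical axis) in 4 comparisons, with genes past the threshold over all genes in red. Only the interval for C1qb in the comparison of histologies is red (0.87), and the C3ar1 interval for pubertal HFD minus LFD runs from 0.32 to 1.12.

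The same 4 genes had positive differences within each histology. In epithelial tumors C3ar1 differed by 0.80 (adjusted p = 0.261), C1qb by 0.68, C1qc by 0.47 and C1qa by 0.44. In spindle cell tumors they differed by 0.54, 0.53, 0.23 and 0.48, with adjusted p from 0.549 to 0.817. In the tumor channel C3ar1 was 0.95 higher with pubertal HFD and in the reference channel 0.22. Macrophage markers had positive differences in 16 of 16 cases, with 0 called and a median of 0.20 against -0.024 over all genes, and their mean log2 ratio in epithelial tumors was 0.26 to 1.65 with pubertal LFD and 0.52 to 2.38 with pubertal HFD. In spindle cell tumors it was 0.88 to 1.98 and 0.86 to 2.55. Their part in these differences was not tested. The early HFD tumors 42L4B and 60L share a slide and a scan session of their own; without them the difference of C3ar1 was 0.64 (adjusted p = 0.499). Within the 4 slides that held both pubertal diets, it was 0.98, 0.87, 0.93 and -0.44, and with the slide as a fixed block 0.64 (SE 0.31, adjusted p = 0.9998). The 0.98 came from the only slide of epithelial tumors among them, where 2 late HFD tumors were set against 2 early LFD-HFD tumors. These are the tumors of the -0.98 given for onset, so pubertal diet and onset cannot be told apart there.

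For adult diet 0 of 20910 genes were called (0%; 954 at an unadjusted p under 0.05), and 0 of the 9 members reached an unadjusted p under 0.05. The largest values were 0.45 for C3 (95% interval -0.33 to 1.23), 0.36 for C3ar1 (-0.084 to 0.80) and 0.27 for C1qb (-0.23 to 0.78). With the slide as a fixed block the value of C3 was -1.28, that of C3ar1 0.56 and that of C1qb 1.08 (SE 0.54). C1qa went from 0.12 to 0.96 (SE 0.55) and C1s from -0.081 to -1.97 (SE 1.21), and no member passed the test. No slide of epithelial tumors held both adult diets, so that fit compared them only within slides of spindle cell tumors.

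Across the 4 regimens of the epithelial tumors, C3ar1 had the smallest p among the members (limma F test, adjusted p = 0.246), with 99 of 20910 genes called (0.473%). Its mean log2 ratio was 2.71 ± 0.67 (SD, n = 8) with HFD, 2.25 ± 0.63 (SD, n = 7) with HFD-LFD, 1.80 ± 0.47 (SD, n = 6) with LFD-HFD and 1.61 ± 0.71 (SD, n = 8) with LFD. The HFD tumors ran from 1.56 to 3.64 and the LFD tumors from -0.016 to 2.35, so the extremes overlapped. Among the slides of epithelial tumors, only the slide shared by HFD and LFD-HFD tumors held different regimens. Apart from that slide, differences between regimens cannot be told apart from slide. HFD exceeded LFD by 1.10 (SE 0.31, adjusted p = 0.391) and LFD-HFD fell short of HFD by -0.91 (SE 0.34, adjusted p = 0.327), and neighbours in this order did not pass a test of their difference. C1qb differed by 0.76 (HFD against LFD) and 0.69 (HFD-LFD against LFD), and C1qc by 0.49 (HFD against LFD). None of the 9 genes passed in any of the 6 pairs, where 0% (HFD against LFD), 1.25% (HFD-LFD against LFD), 0% (LFD-HFD against LFD), 0.0287% (HFD-LFD against HFD), 0.263% (LFD-HFD against HFD) and 0% (LFD-HFD against HFD-LFD) of all genes were called. The 6 pairs share groups of tumors. In the pairs with no call, 1971, 1370 and 1060 genes had an unadjusted p under 0.05 in limma.

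In spindle cell tumors 0 of 20905 genes were called across regimens (0%; 782 at an unadjusted p under 0.05). C1qb was 0.71, 0.86 and 0.97 in the LFD tumors and 1.63, 1.82 and 2.22 in the HFD tumors, and these triplets did not overlap. It was 1.15, 1.75 and 3.03 with HFD-LFD and 0.92, 2.32 and 2.62 with LFD-HFD. Its adjusted p over the 4 regimens was 0.977.

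The last comparison asked whether the pubertal diet difference itself differed between the histologies, and no member passed over all genes. The pubertal diet difference in spindle cell tumors minus that in epithelial tumors was -3.02 for C1s (SE 0.92, adjusted p = 0.182), -1.90 for C3 (adjusted p = 0.324), -1.72 for C4b (0.326), -1.51 for C2 (0.286) and -1.28 for Cfb (0.455), and between -0.26 and 0.037 for the C1q genes and C3ar1. In limma 4 of 9 members, C1s, C2, C3 and C4b, had an unadjusted p under 0.05, as did 2558 of 20908 genes, and 0.445% of all genes were called and 0.297% with a negative value. The median over the members was -1.28, against 0.072 over all genes. C1s was -2.83 (M128L), -2.58 (M63L), -2.32 (M54R), -1.88 (M56LA), -0.92 (M118R) and 1.15 (M129L) in spindle cell tumors with pubertal HFD. In those with pubertal LFD it was -2.93 (M18L), 0.61 (M84R), 0.63 (M86R), 0.66 (M33R), 2.08 (M76R) and 2.14 (M32L). Apart from M18L and M129L the groups did not overlap. Within the slides of the spindle arrays the difference was 2.07, which set M18L against the 3 HFD-LFD tumors, -3.84 and -3.00. In epithelial tumors C1s ran from -2.58 through -0.20 to 1.62 with pubertal HFD and from -2.97 through -1.43 to 1.23 with pubertal LFD. The members' values within spindle cell tumors were -2.09 for C1s, -1.51 for C3, -1.44 for C4b, -1.37 for C2 and -0.88 for Cfb, with adjusted p from 0.491 to 0.666.

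Complement genes outside the members did pass. The inhibitor Serping1, C1 inhibitor, which blocks C1r and C1s, had an interaction of -3.10 (SE 0.57, adjusted p = 0.0168), C1rb one of -2.12 (adjusted p = 0.0663) and C1ra one of -2.46 (adjusted p = 0.0939). When single tumors were left out, Serping1 passed in 41 of 41 fits (adjusted p up to 0.0808). C1rb passed in 35, but not without M128L, M32L, M33R, M54R, M63L or M76R (adjusted p up to 0.197), and C1ra passed in 12 of 41 (adjusted p up to 0.246). Serping1 ran from -2.36 to -0.48 in spindle cell tumors with pubertal HFD and from -1.39 to 1.89 with pubertal LFD. Its pubertal diet difference was -2.32 within spindle cell tumors (limma adjusted p = 0.377) and 0.77 within epithelial tumors (adjusted p = 0.360). For C1rb these differences were -1.33 (adjusted p = 0.479) and 0.79 (adjusted p = 0.2565), and for C1ra -1.72 (adjusted p = 0.467) and 0.73 (adjusted p = 0.403). Of the 12 initiation genes 2 were called, of 14 regulators 1, of 4 terminal genes 0 and of 8 receptors 0, where 0.445% of all genes were called. In limma 3, 8, 0 and 0 of them had an unadjusted p under 0.05, as did 2558 of 20908 genes.

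M32L and M76R, both late tumors with pubertal LFD, had the highest C1s, C4b, C3, C2 and Cfb of the spindle cell tumors. C4b was 3.24 in M32L and 3.47 in M76R, and between -2.02 and 0.97 in the other 10. They also stood apart in adipocyte markers: the mean level of the 6 tested was 1.28 in M32L and 2.97 in M76R, and between -5.78 and -4.08 in the other 10. The mean level of the 11 fibroblast markers was -2.26 to 0.61 in spindle cell tumors with pubertal LFD and -2.74 to -0.73 with pubertal HFD, and 1 of them, Fap, passed the interaction test (-1.71, adjusted p = 0.0441). Without M32L and M76R the interaction was -2.23 for C1s (adjusted p = 0.656), -0.97 for C3, -0.87 for C2, -0.68 for Cfb and -0.57 for C4b, and 0 of 20907 genes were called. For Serping1 it was -2.54 (adjusted p = 0.340), for C1rb -1.83 (adjusted p = 0.348) and for C1ra -1.90 (adjusted p = 0.491). Leaving out M18L instead gave -3.71 for C1s (adjusted p = 0.0245) and 3 members called, C1s, C2 and C4b, with 2.36% of all genes. The part of fat tissue in these values was not tested.

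**Figure D4:**
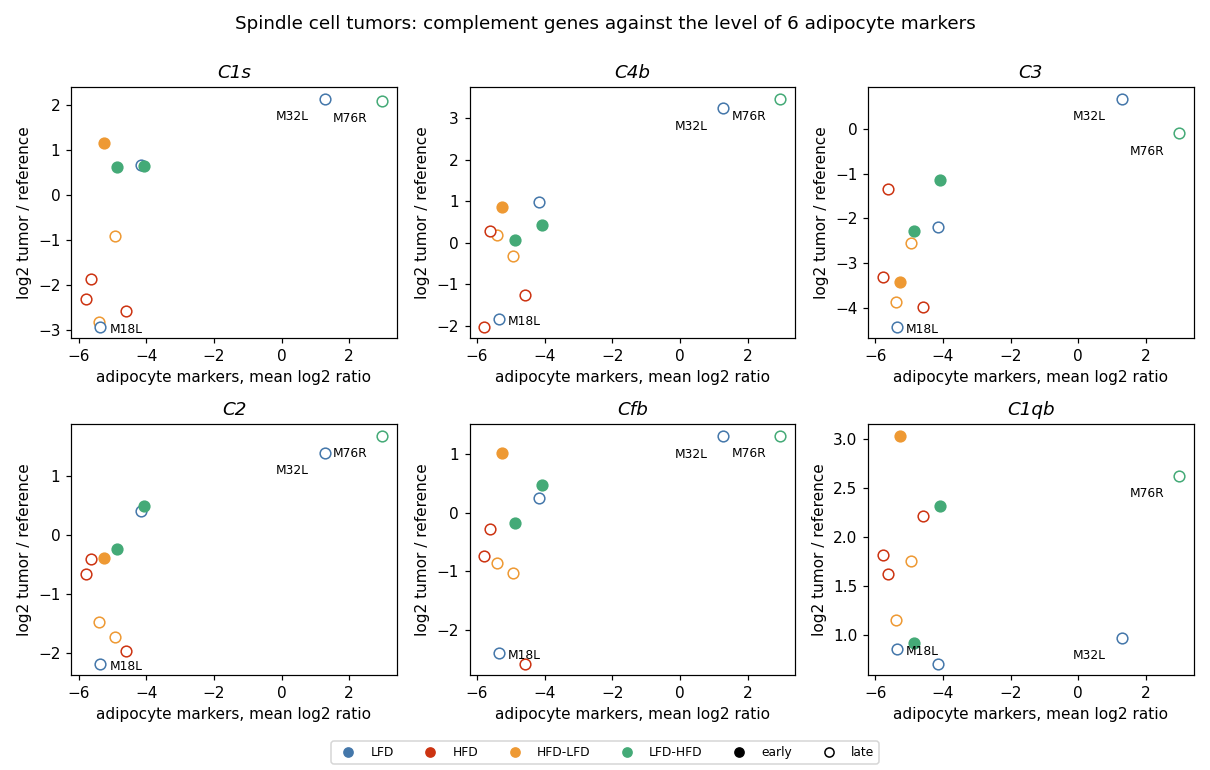
Log2 ratios of C1s, C4b, C3, C2, Cfb and C1qb (vertical axes) against the mean log2 ratio of 6 adipocyte markers (horizontal axes) in the 12 spindle cell tumors, colored by regimen, filled for early and open for late tumors. M32L and M76R lie apart at 1.28 and 2.97 on the horizontal axis and are highest for all genes shown except C1qb, and M18L is lowest for C1s at -2.93.

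Variation across tumors is described with Pearson's r over the epithelial tumors (n = 27 to 29) and over the 12 spindle cell tumors; the points share the reference and the scan sessions of their histology. C1qa, C1qb and C1qc went together, with r of 0.86 to 0.93 in epithelial and 0.81 to 0.99 in spindle cell tumors. C3ar1 followed them at 0.61 to 0.77 and 0.52 to 0.74. C2, C3, C4b, Cfb and C1s had r of 0.23 to 0.69 among themselves in epithelial tumors and 0.77 to 0.91 in spindle cell tumors. Without the 2 epithelial tumors farthest from the median of the first gene of each pair the epithelial values were 0.085 to 0.57, and without M32L and M76R the spindle values were 0.57 to 0.87. In epithelial tumors these genes did not form a block of their own: C4b and Cfb had r of 0.23, below C1qc with C2 (0.37) and with C1s (0.355), and Cfb had r of 0.57 to 0.71 with the C1q genes. C3ar1 and C3 had r of 0.069 in epithelial and -0.35 in spindle cell tumors.

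**Figure D5:**
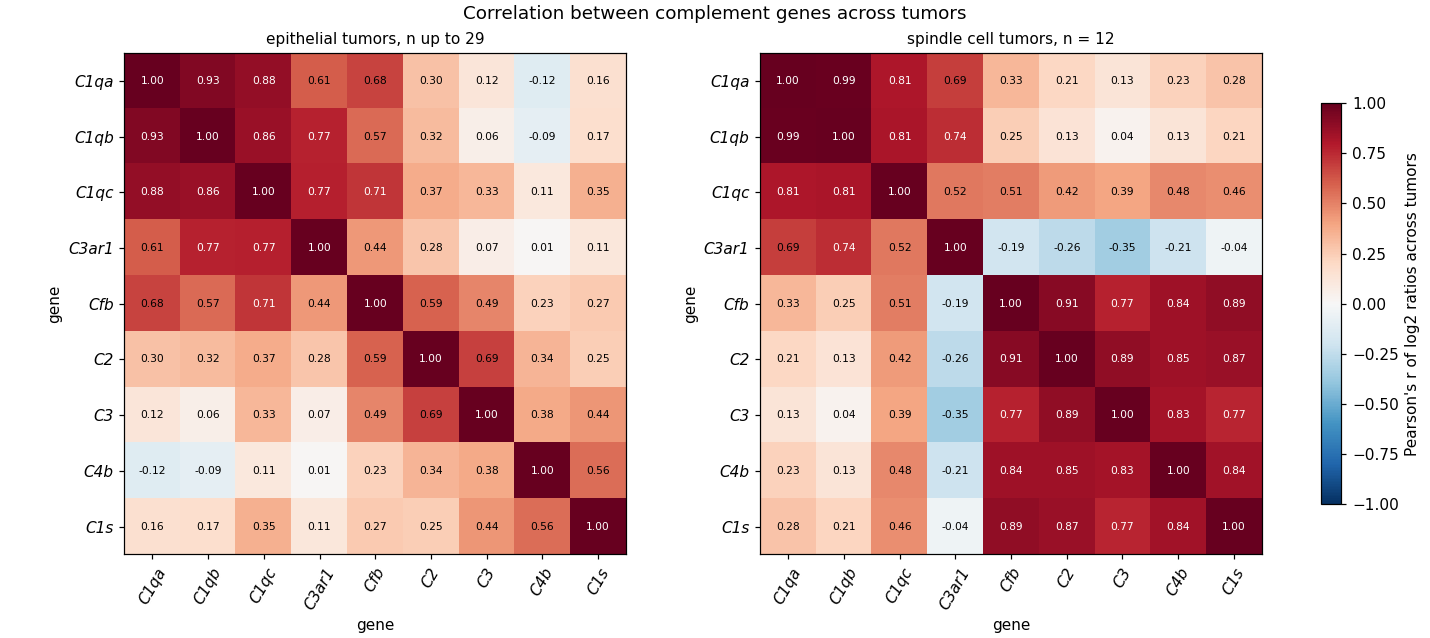
Pearson's r between the log2 ratios of each pair of the 9 genes (both axes) across epithelial and across spindle cell tumors, from blue at -1 to red at 1. The C1q genes form a block at 0.81 or above in both panels, and C2, C3, C4b, Cfb and C1s form a block at 0.765 or above in spindle cell tumors.

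For each member, the genes outside the members with the highest r over the epithelial tumors are given as a description. C1qa and C1qb went with Fcer1g, the Fc receptor gamma chain, at 0.86 and 0.84, and with Ms4a6c at 0.84 and 0.87. C1qc went with Lst1 (0.89), Fcer1g (0.89) and Csf1r, the receptor for macrophage colony stimulating factor (0.88). Ctss and Lgmn, both lysosomal proteases, were the remaining genes nearest to C1qa (0.85) and C1qb (0.83). Fcer1g was also nearest to Cfb (0.87), followed by Man2b1 (0.85). C3ar1 went with Atp6v0c, a proton pump subunit (0.81). C1s went with Gm5077, the older name of its paralog C1s2 (0.98), C1ra (0.89) and Vcam1, an adhesion molecule (0.86). C4b went with Thy1 (0.71), Srpx (0.70) and Epha3 (0.70), C3 with Orai2 (0.77), Abca7 (0.74) and Prkcq (0.73), and C2 with Scn3a (0.75), Cyfip2 (0.73) and Il6ra (0.73).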

How the data were processed

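Total RNA of each tumor was hybridised by the authors with a common reference RNA to 2-color Agilent mouse arrays, and the deposited scanner files hold the processed signal intensity of each channel, which the authors' Feature Extraction software had background-subtracted and dye-normalized (versions 11.0 and 10.5 per the file headers, 8.5.1.1 in the submitters' processing notes). Groups came from the labels. The log2 ratio of the deposited Cy5 over Cy3 intensity was computed, outlier spots were treated as missing, spots were averaged per probe, and the filter retained probes whose signal exceeded 10 in each channel on 80% or more of the arrays (27304 of 39429 probes, 20910 genes). The number of arrays limits the precision. Comparisons used limma 3.58.1 in R 4.3.3 (data.table, version 1.17.8), with Benjamini-Hochberg adjustment over all genes, at 0.05 for histology and 0.1 otherwise; the study's own test rests on resampled groups and was not run. Pipelines were tested on simulated data with 200 changed genes. Members and gene lists were chosen with earlier results of these data known. Named genes were the 9 members, other complement genes called in a comparison, and the 3 genes most like each member, of which 1 is not reported here and 2 are probes without a gene name. Alternatives covered normexp (offset 50) with loess, median centring, filters, outlier spots, slides, single tumors and the authors' table of log2 ratios, which the authors deposited as roughly median-centred log2 values (39265 rows, all matched to probes); per the study's methods its data had passed a signal filter, Lowess normalization and nearest-neighbor imputation.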

Additional observations from a re-analysis of the deposited data

Results flagged for a closer look

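Of 63 groups of 4 to 10 tumors examined, 3 had an extreme tumor whose gap to the nearest, relative to the group's range, passed Dixon's 95% critical value; chance flags about 1 in 20 groups. Cfb was -2.82 in tumor 90R, the lowest epithelial LFD-HFD tumor, with the nearest at -1.37. C3ar1 was -0.0159 in tumor 13L, the lowest epithelial LFD tumor, with the nearest at 1.46. C1s was -2.93 in tumor M18L, the lowest spindle cell tumor with pubertal LFD, with the nearest at 0.612.

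The difference between pubertal HFD and pubertal LFD itself differed between spindle cell and epithelial tumors, by limma's interaction term, for Serping1 (-3.10, adjusted p = 0.0168), C1rb (-2.12, adjusted p = 0.0663) and C1ra (-2.46, adjusted p = 0.0939), where 0.445% of all genes were called. None of the 3 passed without M32L and M76R, where the values were -2.54, -1.83 and -1.90 with adjusted p of 0.340, 0.348 and 0.491.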

How the results depend on the processing

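Among the values of single members tabulated under each alternative setting, 620 kept their direction and side of the threshold, 27 changed sign and 1 newly passed. Of the counts of called members, 410 kept within 1.5 times and 11 rose. Outside the comparison of histologies the main count was 0, so it could not fall. These values of single members leave out the fits without 1 tumor, with swapped labels, without 60L and 42L4B, without 42L4B, 60L and M86R, without the 3 disputed tumors, of late tumors only and within 1 histology. The settings without M32L and M76R, without 60L and 42L4B, the single-histology fit of spindle cell tumors for diet, and those of the interaction values of single genes were chosen after seeing the data.

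In the comparison of histologies 2 members (C1qa and C1qb) were called at an adjusted p under 0.10 and also without 60L and 42L4B (C1qa 0.60, adjusted p = 0.0414), and 1 to 2 when single tumors were left out. In the pubertal diet by histology interaction 1 member (C1s) was called with normexp and loess (value -2.87, adjusted p = 0.0489, with 3328 genes or 11.0% called) and 1 (C1s) without 42L4B, 60L and M86R (620 genes, 2.97%), and 0 to 3 when single tumors were left out, with 3 without M18L. That count over all genes was 93 in the main setting and 0 without M32L and M76R. The share of higher calls moved with the setting: between histologies it was 1657 of 4218, against 1870 of 3996 with median centring, 1875 of 3910 with normexp and loess, 4261 of 7892 with no filter on low signal and 2168 of 4213 in the authors' table, and in the interaction 31 of 93 against 14 of 84 with median centring, 599 of 3328 with normexp and loess and 39 of 207 in the authors' table. Between histologies normexp and loess and the setting with no filter tested 30175 genes, and the authors' table gave 27949 genes to test, against 20910.

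Sign changes were of uncalled values in the settings listed here. With normexp and loess C3ar1 became -0.00921 for early against late spindle cell tumors and 0.46 in the diet interaction. With median centring C1qa became -0.0695 in the diet interaction. With outlier spots kept C2 became 0.0065 between histologies, Cfb -0.020 and C1s -0.039 for pubertal diet, and C1qc 0.013 in the onset interaction. In the authors' table C1s became 0.070 for early against late epithelial tumors, Cfb -0.055 for pubertal diet, C1qa -0.020 and C3ar1 0.082 in the diet interaction and C3ar1 0.18 in the onset interaction. With the slide as a random block C1s became -0.17 for pubertal diet. With the slide as a fixed block Cfb became -0.22 for early against late epithelial tumors and -0.00992 for pubertal diet, C1s -0.80 for pubertal diet, and C2 -1.09 and C3 -1.28 for adult diet. With 1 tumor per shared number C1s became -0.11 for pubertal and 0.036 for adult diet and C1qc 0.00251 in the onset interaction. Without M32L and M76R C1s became -0.20 between histologies, C3 0.090 and C4b 0.084 for pubertal diet, C1qb 0.054 and C1qc 0.12 in the diet interaction and C1qc 0.12 in the onset interaction. With swapped labels C2 became 0.095 for early against late epithelial tumors. In late tumors only C1s became -0.39 between histologies. When single tumors were left out, C2 reached 0.10 without M18L and C4b 0.16 without M54R between histologies, and Cfb -0.10 for pubertal diet without 90R; other uncalled values also changed sign. The cause was not tested.

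No paired analysis was possible because no more than 1 label number recurs between any groups that were compared. The slide could not be used as a fixed block between histologies, since each slide holds 1 histology.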
